A study of Rattus norvegicus with 23 samples.

Results

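A set of 6 genes that mark GABA neurons was followed in 3D aggregates of rat brain cells, taken by Ensembl identifier from the 32494 gene rows in the files. They were Gad1 (ENSRNOG00000000007), Gad2 (ENSRNOG00000018200), Slc32a1 (ENSRNOG00000015393), Sst (ENSRNOG00000001837), Npy (ENSRNOG00000009768) and Pvalb (ENSRNOG00000006471). GABA is the main inhibitory transmitter of the brain. It is made from glutamate by glutamate decarboxylase, whose forms GAD67 and GAD65 are encoded by Gad1 and Gad2, and it is loaded into synaptic vesicles by the transporter VGAT, encoded by Slc32a1. Many cortical GABA neurons fall into classes known by a peptide or a calcium-binding protein: somatostatin (Sst), neuropeptide Y (Npy) and parvalbumin (Pvalb). Parvalbumin appears late in the maturation of rodent cortex, whereas both decarboxylases are already present in the embryo.

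The aggregates were of Sprague Dawley origin, embryonic day 15, and were cultured for 14 days in constant motion. They received 120 ng/ml sepiapterin, a precursor from which cells make tetrahydrobiopterin, or phosphate-buffered saline (PBS). The design asks whether this treatment alters gene expression over time, and the title of the series names early sapropterin treatment in phenylketonuria. There were 3 libraries each of sepiapterin and PBS aggregates at 6, 12 and 24 hours, 3 PBS libraries at 0 hours, and 2 further PBS libraries at 12 hours titled as repeats of samples 10 and 11, 23 libraries in all. All groups shared strain, age and culture, and the labels do not say how many embryos or cultures stood behind a library, so the errors below measure the spread between libraries, which may be technical.

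Libraries held 16991417 to 26588314 reads in genes. Levels are CPM, the reads of a gene scaled to a common total of reads in genes. They do not take transcript length into account, so they are compared between libraries for a gene and not between genes. Titles and file headers disagree on which libraries of samples 10 and 11 are the repeats, and groups follow the titles unless stated. By label, 6 and 12 hours were made in a first batch of libraries and 24 hours with the repeats in a second, while the labels name no batch for 0 hours. PBS replicate 1 at 0 hours stood apart: its root mean square difference in log2 CPM over all tested genes was 0.36 from replicate 2 and 0.39 from replicate 3. Replicates 2 and 3 differed by 0.25, and the largest value within another of the 7 main groups was 0.301.

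Gad1, Gad2, Slc32a1 and Sst were well measured in all 23 libraries, with means over the 21 libraries of the main groups of 184, 222, 80.2 and 42.3 CPM. Pvalb was near the limit of detection at 0.318 CPM, and the row for Npy had no read. The defining genes of GABA neurons, Gad1, Gad2 and Slc32a1, were thus present throughout. In bulk RNA, a lower level could come from fewer GABA neurons or from less RNA per neuron, and these cannot be told apart. The symbols are those of the list by which the rows were chosen. The files give identifiers only, 0 of 32494 matched the Ensembl column of the reference table, and genes outside the list are therefore not named here.

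Promoter stretches from RefSeq (build GRCr8, another build than that of the files) are shown for the decarboxylase genes, whose courses over time differed, and for Sst, whose cyclic AMP response element is a textbook site for the factor CREB. Each is 58 bases, 5′ to 3′ on the plus strand, and capitals mark a matched motif.
Gad1, chr3:75777202-75777259: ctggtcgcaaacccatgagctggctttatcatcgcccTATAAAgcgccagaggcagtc
Gad2, chr17:89671660-89671717: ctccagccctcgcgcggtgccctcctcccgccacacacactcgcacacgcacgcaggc
Sst, chr11:90461500-90461557: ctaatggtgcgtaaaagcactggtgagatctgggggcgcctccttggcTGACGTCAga
The Gad1 and Gad2 stretches end just before the first annotated base of the gene. In Gad1 the letters TATAAA begin 21 bases before that base, and the Gad2 stretch does not hold them. The Sst stretch runs past the annotated start, and TGACGTCA begins at position 3 from it, counted from 1. Positions are given against the RefSeq annotation only, and where transcription starts was not examined. Promoter windows of 300 bases were found for all 6 genes. The window of Gad1 is set on a later start than the first annotated base, and TATAAA begins 213 bases before that later start. The Gad2 stretch, in contrast, ends just before the start on which its window is set. Searched on both strands, TATAAA was in 14.2% of all 33469 such windows and, among the 6 genes, in Gad1. TGACGTCA, which reads the same on both strands, was in 1.83% of windows and, among the 6, in Sst. These are matches of letters and are not evidence of binding.

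Gad2 was the one gene of the set that passed a test between times in the main analysis, always in the direction of a higher level later. Gad2 stood at 151, 168 and 178 CPM in the PBS libraries at 0 hours and at 191, 210 and 185 CPM at 6 hours. At 12 hours it had 214, 242 and 211 CPM and at 24 hours 266, 240 and 246 CPM. The libraries of each later time all lay above those of 0 hours, and those of 24 hours overlapped with those of 12 hours. Group means were 166 ± 13.4, 195 ± 13.0, 223 ± 17.2 and 251 ± 13.5 CPM at 0, 6, 12 and 24 hours (SD, n = 3 each).

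**Figure D1:**
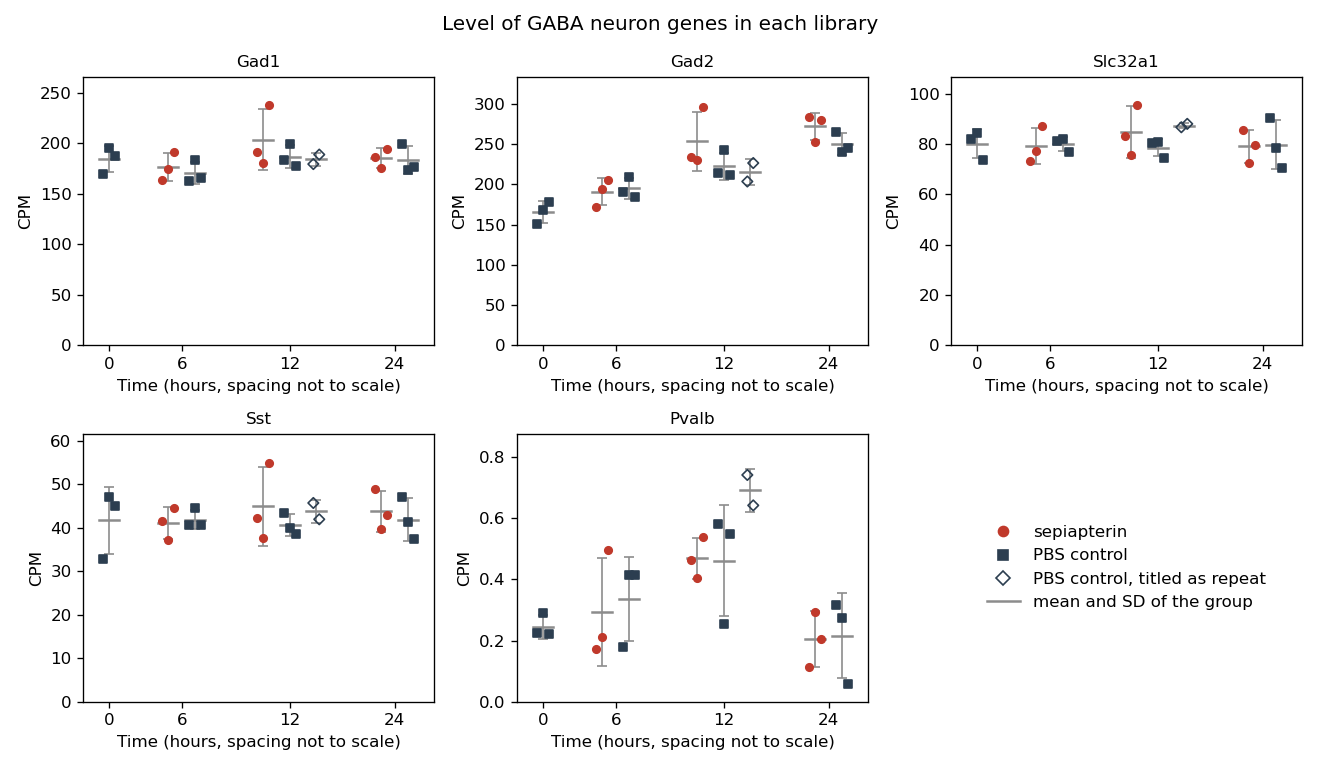
Levels of 5 genes in every library (CPM, axes from 0) against time, with sepiapterin as red circles, PBS as dark squares and PBS libraries titled as repeats as open diamonds. Grey lines are the mean and SD of each group. Gad2 lies at 151 to 178 CPM at 0 hours and at 240 to 284 CPM at 24 hours, while Gad1, Slc32a1 and Sst overlap between these times.

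Among PBS aggregates, Gad2 rose 1.52-fold at 24 hours over 0 hours, a log2 fold change of 0.60 ± 0.09 (SE, edgeR quasi-likelihood test, adjusted p = 0.00014). At 12 hours over 0 hours it rose 1.33-fold, a log2 fold change of 0.41 ± 0.09 (edgeR, adjusted p = 0.0032). These comparisons with 0 hours were added after the levels had been seen, and since no batch is named for 0 hours, time and library preparation cannot be told apart in them. Gad2 was 1 of the 5 genes tested of this set that passed in each, beside 25.7% of all 14035 genes tested (12.9% higher) for 24 hours and 24.9% (13% higher) for 12 hours. A share of 1 in 5 is near that of all genes. Libraries of the later time lay wholly above those of 0 hours for 17.4% of all genes at 24 hours and for 17% at 12 hours. Over 24 hours the median log2 fold change was 0.00 for the 5 genes and -0.01 for all genes.

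The single steps were smaller. At 6 hours over 0 hours in PBS aggregates, Gad2 had a log2 fold change of 0.20 ± 0.09 (edgeR, adjusted p = 0.13) and 0 of 5 genes passed, against 21.6% of all genes. At 12 hours over 6 hours, within the first batch by label, it was 0.21 ± 0.09 (edgeR, adjusted p = 0.19) and 0 of 5 passed, against 4.67% of all genes. At an unadjusted p under 0.05 the count was 1 of 5 in each of these steps. Beside it stood 4768 of all 14035 genes in the step to 6 hours and 2998 in the step to 12 hours. DESeq2 called 0 of the 5 in each, beside 2945 of 13187 genes and 907 of 11592 genes in the same order. Grouped by title, Gad2 libraries did not overlap in either step. Libraries lay wholly higher for 18.3% of all genes in the step to 6 hours and for 15.6% in the step to 12 hours. A fit of the 12 and 6 hour PBS libraries alone called Gad2 in the step to 12 hours, at 0.21 with an adjusted p of 0.022 (edgeR). That fit called 1528 of 13559 genes, where the main fit called 655 of 14035. With the 12 hour libraries taken by file header, Gad2 was at 0.14 (edgeR, adjusted p = 0.46), and 167 of 14027 genes were called. Its libraries then overlapped, with 204 CPM in a 12 hour library and 210 CPM in a 6 hour library. With both libraries of samples 10 and 11 summed, Gad2 was at 0.18 (edgeR, adjusted p = 0.30).

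In sepiapterin aggregates, Gad2 was at 235, 231 and 296 CPM at 12 hours, against 173, 194 and 206 CPM at 6 hours. All libraries of 12 hours lay above those of 6 hours, as they did for 15.6% of all genes, and both times are in the first batch by label. Gad2 rose 1.35-fold, a log2 fold change of 0.44 ± 0.09 (SE, edgeR, adjusted p = 0.012), the 1 call among 5 genes, where 4.37% of all genes were called (2.89% higher). The call rested on single libraries: it was lost without sepiapterin replicate 3 at 12 hours (0.32, adjusted p = 0.073), and without replicate 1 (0.37, adjusted p = 0.083) or replicate 2 (0.45, adjusted p = 0.051) at 6 hours. It was also lost in a fit of these 2 groups alone (0.44, adjusted p = 0.082). Sepiapterin replicate 3 at 12 hours was the highest of its group in 4 of 4 well measured genes. Gad1, Slc32a1 and Sst had log2 fold changes of 0.23 ± 0.09, 0.12 ± 0.09 and 0.16 ± 0.14 in this comparison, with edgeR adjusted p of 0.14, 0.45 and 0.57. Without sepiapterin replicate 3 at 12 hours they were 0.11, 0.032 and -0.013.

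Within the second batch by label, PBS aggregates at 24 hours were set against the PBS libraries titled as repeats at 12 hours. Gad2 was at 266, 240 and 246 CPM at 24 hours and at 204 and 227 CPM in the repeats. Every 24 hour library was above both repeats, as for 21.2% of all genes. Gad2 rose 1.19-fold, or by 0.25 ± 0.06 on the log2 scale (SE, edgeR, adjusted p = 0.033), as 1 of 5 genes, where 5.54% of all 13653 genes tested were called (3.09% higher). With the 12 hour libraries taken by file header instead, the log2 fold change was 0.16 and the adjusted p 0.34. Leaving out any of the 5 libraries compared also ended the call, with adjusted p from 0.055 to 0.42. The call held in 4 of 11 alternatives run, against 12 of 12 for 24 over 0 hours and 13 of 13 for 12 over 0 hours.

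Gad1 did not show this course. It stood at 170, 195 and 188 CPM at 0 hours and at 199, 173 and 177 CPM at 24 hours in PBS aggregates. Means were 184 ± 13.0, 171 ± 11.3, 187 ± 11.4 and 183 ± 13.9 CPM at 0, 6, 12 and 24 hours (SD, n = 3 each), and the groups overlapped. The log2 fold change of 24 over 0 hours was -0.0031, with a 95% interval of -0.19 to 0.18 (edgeR, adjusted p = 0.98). For Slc32a1 it was 0.00043, with an interval of -0.19 to 0.19 (edgeR, adjusted p = 1.00), from 90.2, 78.4 and 70.6 CPM at 24 hours and 82.0, 84.5 and 73.5 CPM at 0 hours. For Sst it was 0.01, with an interval of -0.29 to 0.32 (edgeR, adjusted p = 0.96). Sst libraries had 47.0, 41.3 and 37.4 CPM at 24 hours, against 32.9, 47.2 and 44.9 CPM at 0 hours, and the low value is that of the library that stood apart. With 3 libraries a group, a change within these intervals is not excluded.

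**Figure D2:**
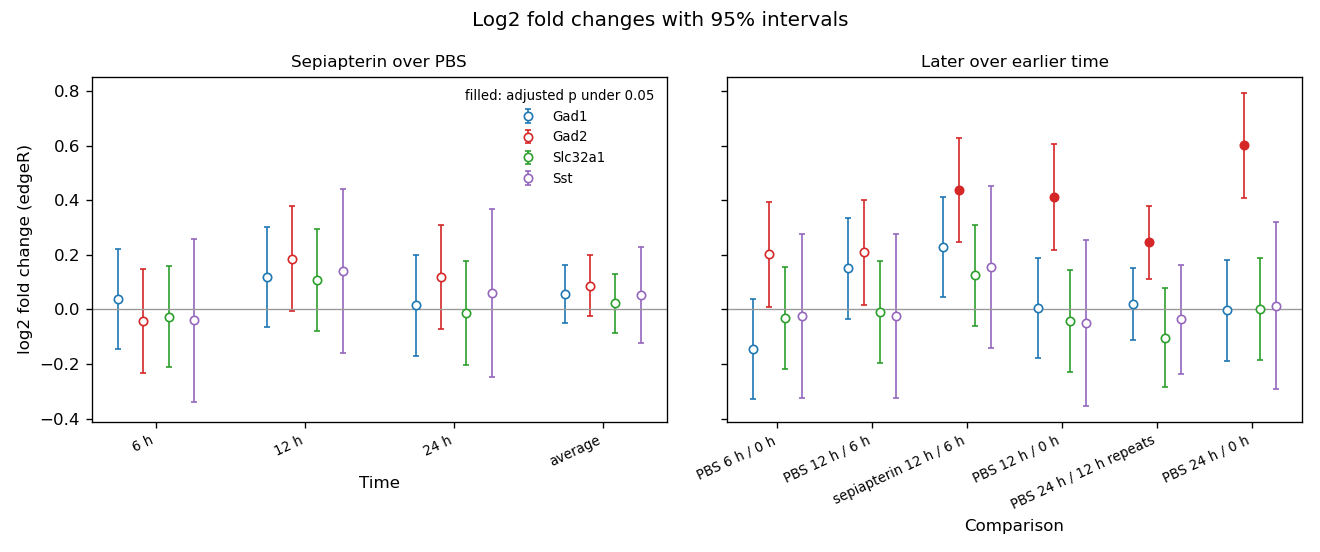
Log2 fold changes of 4 genes with their 95% intervals from edgeR, for sepiapterin over PBS (left) and for later over earlier times (right). Filled symbols have an adjusted p under 0.05. The filled symbols are all Gad2, from 0.25 to 0.60, and every interval on the left spans 0.

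The count of Gad2 over that of Gad1 in the same library does not depend on how libraries are scaled. It is a ratio of reads, not of molecules, because the transcripts differ in length. It was computed as 1 of 6 ratios among the 4 well measured genes, after their levels had been seen, and is given with no test. In PBS aggregates at 0 hours the ratio was 0.891, 0.860 and 0.949, and at 24 hours it was 1.33, 1.38 and 1.39. The ratio of every 24 hour library was above that of every 0 hour library, and for 7.71% of all genes the ratio to Gad1 did the same. Means in PBS aggregates were 0.900 ± 0.045, 1.14 ± 0.028, 1.19 ± 0.025 and 1.37 ± 0.030 at 0, 6, 12 and 24 hours (SD, n = 3 each). The repeats at 12 hours had 1.14 and 1.20.

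This ratio varied less between libraries of a group than the level of Gad2 did, in each of the 8 groups. Its SD was 2.10 to 5.01% of the mean over the 8 groups, where counting alone gives 1.92 to 2.30%. Sepiapterin replicate 3 at 12 hours, high in all 4 genes, had a ratio of 1.25 between those of the other libraries of its group, 1.22 and 1.28. The ratio of Slc32a1 to Gad1 showed no such course: it averaged 0.435 ± 0.031 at 24 hours and 0.436 ± 0.045 at 0 hours in PBS aggregates (SD, n = 3 each). By title, at 12 hours it was 0.404 to 0.437 in PBS and 0.403 to 0.434 in sepiapterin aggregates. At 6 hours it was higher without overlap, at 0.448 to 0.498 in PBS and 0.443 to 0.456 in sepiapterin aggregates. The repeats at 12 hours had 0.483 and 0.466, within the PBS range of 6 hours. By file header, PBS libraries of 12 and 6 hours therefore overlapped. The share of all genes that moved so was not counted, and nothing is drawn from this separation.

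**Figure D3:**
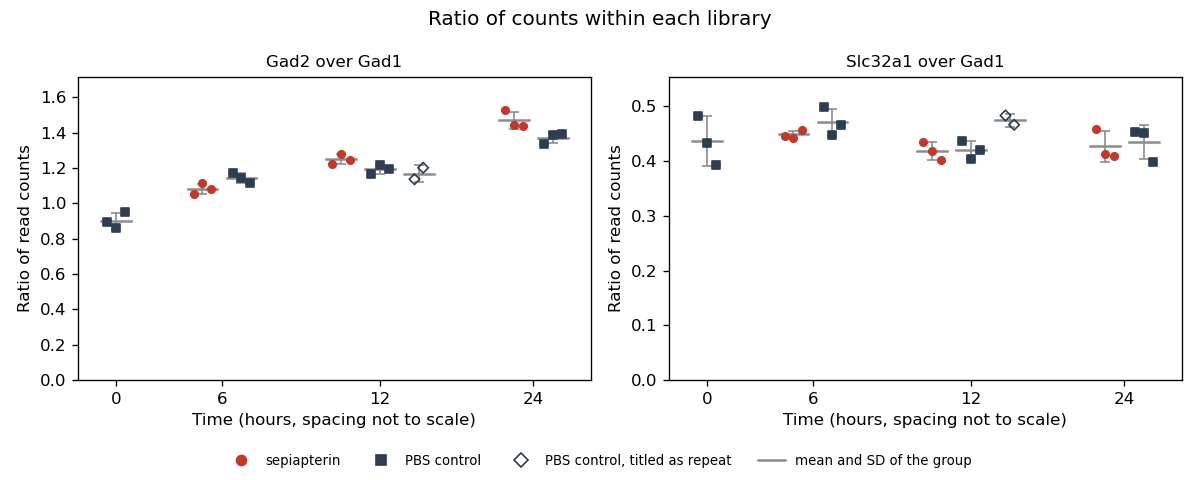
Ratio of read counts within each library, Gad2 over Gad1 (left) and Slc32a1 over Gad1 (right), against time, with sepiapterin as red circles, PBS as dark squares and repeats as open diamonds, and with the group mean and SD in grey. Gad2 over Gad1 lies at 0.860 to 0.949 at 0 hours and at 1.33 to 1.52 at 24 hours. Slc32a1 over Gad1 overlaps between 0 and 24 hours.

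Sepiapterin changed the level of none of these genes by the test. At 6, 12 and 24 hours, 0 of 5 genes passed with edgeR, where 0%, 0.0214% and 4.17% of all genes did, and 0 passed in the average over the 3 times, where 1.03% did. In each of these comparisons the count at an unadjusted p under 0.05 and the count by DESeq2 were also 0. At an unadjusted p under 0.05 stood 301, 2231 and 2870 of all 14035 genes at 6, 12 and 24 hours, and 2472 in the average. DESeq2 called 0 of 21161, 236 of 11194 and 835 of 11194 genes at these times, and 454 of 11991 in the average. The sepiapterin effect did not pass the test for a difference between times for any of the 5 genes, with 0.235% of all genes called for 24 against 12 hours, 0% for 24 against 6 hours and 0% for 12 against 6 hours. DESeq2 called 0 of the 5 there too, beside 163 of 9200, 47 of 11592 and 0 of 21161 genes in the same order. With few or no calls among all genes before 24 hours, the absence of calls in this set says little about it in particular.

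Gad2 at 24 hours was at 284, 253 and 280 CPM in sepiapterin aggregates and at 266, 240 and 246 CPM in PBS aggregates, and the libraries overlapped. Its log2 fold change was 0.12 ± 0.09, with a 95% interval of -0.07 to 0.31 (edgeR, adjusted p = 0.51). At 12 hours Gad2 was at 235, 231 and 296 CPM with sepiapterin and at 214, 242 and 211 CPM with PBS. The log2 fold change was 0.19 ± 0.09, with an interval of -0.01 to 0.38 (edgeR, adjusted p = 0.33), and without sepiapterin replicate 3 it was 0.06. At 6 hours it was -0.04 ± 0.09 (edgeR, adjusted p = 1.00), from 173, 194 and 206 CPM with sepiapterin and 191, 210 and 185 CPM with PBS. The effect at 12 hours minus that at 6 hours was 0.23 ± 0.13 (edgeR, adjusted p = 0.70), and 0.11 without sepiapterin replicate 3 at 12 hours.

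Averaged over the 3 times, the sepiapterin effect on Gad2 was a log2 fold change of 0.09, with a 95% interval of -0.02 to 0.20 (edgeR, adjusted p = 0.41). For Gad1 it was 0.06, with an interval of -0.05 to 0.16 (edgeR, adjusted p = 0.59). For the transporter Slc32a1 it was 0.02, with an interval of -0.09 to 0.13 (edgeR, adjusted p = 0.87), and for Sst 0.05, with an interval of -0.12 to 0.23 (edgeR, adjusted p = 0.79). None of these 4 intervals reached beyond 0.23 on the log2 scale, and that a test was not passed does not show that the levels were alike. Levels of Gad1 at 24 hours were 185 ± 9.63 CPM with sepiapterin and 183 ± 13.9 CPM with PBS. Slc32a1 was at 79.1 ± 6.52 CPM with sepiapterin and 79.7 ± 9.86 CPM with PBS, and Sst at 43.8 ± 4.69 CPM with sepiapterin and 41.9 ± 4.85 CPM with PBS (SD, n = 3 each).

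At 12 hours the sepiapterin libraries of Gad1 were at 192, 181 and 238 CPM, against 184, 199 and 177 CPM with PBS. Slc32a1 was at 83.3, 75.5 and 95.7 CPM with sepiapterin and at 80.3, 80.6 and 74.6 CPM with PBS. Sst, the peptide of the somatostatin class, was at 42.2, 37.6 and 55.0 CPM with sepiapterin and at 43.5, 40.0 and 38.5 CPM with PBS. In each of these genes the highest sepiapterin library was replicate 3, and the groups overlapped. At 6 hours Gad1 averaged 176 ± 13.7 CPM with sepiapterin and 171 ± 11.3 CPM with PBS, Slc32a1 79.2 ± 7.21 and 80.0 ± 2.80 CPM with sepiapterin and PBS, and Sst 41.1 ± 3.61 and 41.9 ± 2.24 CPM with sepiapterin and PBS (SD, n = 3 each).

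The ratio of Gad2 to Gad1 did separate sepiapterin from PBS libraries, in a direction that changed with time. At 6 hours it was 1.05, 1.11 and 1.08 with sepiapterin and 1.17, 1.14 and 1.12 with PBS, lower in every sepiapterin library. At 12 hours it was 1.22, 1.28 and 1.25 with sepiapterin and 1.17, 1.22 and 1.19 with PBS, higher in every sepiapterin library. At 24 hours it was 1.52, 1.44 and 1.44 with sepiapterin and 1.33, 1.38 and 1.39 with PBS, again higher in all. The ratio to Gad1 was lower without overlap at 6 hours for 3.48% of all genes, and higher without overlap at 12 and 24 hours for 2.15% and 5.34%. All of these held for 3 of 14034 genes, 0.0214%, with Gad2 among them, which was singled out after its values were seen. The order of directions counted was itself read from Gad2, so this share does not measure how often some such separation arises. Sepiapterin libraries overlapped with PBS libraries in 5 of the 6 ratios at 6 hours, in 5 at 12 hours and in 4 at 24 hours. Slc32a1 over Sst was the other ratio separated at 24 hours, lower in every sepiapterin library. Its means were 1.81 with sepiapterin and 1.90 with PBS, and the share of all genes was not counted for it. The separation of Gad2 over Gad1 was narrow at its nearest libraries. These lay at 1.112 with sepiapterin and 1.117 with PBS at 6 hours. At 12 hours they lay at 1.223 with sepiapterin and 1.215 with PBS. These gaps are below the counting error of a single library. With 3 libraries a group, an exact two-sided permutation test at 1 time cannot go below 0.1.

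The libraries of samples 10 and 11 show how far these genes differ between libraries of the same sample number. By label the repeats are in the second batch and the others in the first, so repeat measurement and batch cannot be told apart. For sample 10 the log2 ratio of the library titled as the repeat over the other was -0.03 for Gad1, -0.07 for Gad2, 0.11 for Slc32a1 and 0.07 for Sst. For sample 11 it was -0.08, -0.10, 0.13 and 0.07 for the same genes in that order. The median absolute log2 ratio over all tested genes was 0.11 for sample 10 and 0.10 for sample 11. Each of these 4 genes moved in the same direction in both samples, by at most 0.13. For Pvalb the log2 ratio was 0.35 for sample 10, from 15 reads in the repeat and 12 in the other library, and 1.33 for sample 11, from 13 reads in the repeat and 5 in the other.

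Pvalb was close to the floor everywhere. It had 1 to 15 reads in a library, 174 in all, and it passed the filter on low counts mainly through the 12 hour libraries, where it was high. Differences of Pvalb from 12 hours are therefore partly fixed by the filter and support nothing. DESeq2 gave Pvalb no adjusted p in the average sepiapterin effect, at 12 over 0 hours or at 24 hours over the repeats. Pooled over the libraries of a group, PBS aggregates had 16, 24, 29 and 12 reads at 0, 6, 12 and 24 hours, and the repeats at 12 hours 28. In sepiapterin aggregates there were 20, 34 and 11 reads at 6, 12 and 24 hours. In CPM, with exact 95% Poisson intervals that cover counting error only, this was 0.469 (0.325 to 0.655) with sepiapterin and 0.467 (0.313 to 0.671) with PBS at 12 hours. At 24 hours it was 0.203 (0.101 to 0.364) with sepiapterin and 0.219 (0.113 to 0.382) with PBS. The 24 hour PBS libraries all lay below the repeats at 12 hours, at 0.315, 0.275 and 0.0565 against 0.742 and 0.642 CPM, as they did for 22.6% of all genes. In that separate fit Pvalb reached 10 reads in the 2 repeats alone, so no test of it is given. At 12 hours over 0 hours in PBS aggregates the fitted log2 fold change was 0.90 ± 0.48 (SE, edgeR, adjusted p = 0.17), and the libraries overlapped. Pvalb was called there with the 12 hour controls taken by file header, or with both libraries of samples 10 and 11 summed. Both groupings bring in the repeats, with 15 and 13 reads, whereas 0 hour libraries had at most 6. These calls are likewise partly fixed by the filter and support nothing, so their p-values are not given. A count of 3 is worth 0.113 to 0.177 CPM in these libraries, so several of these values are within a few reads of the floor.

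The row listed as Npy had 0 reads in all 23 libraries. Over 489359091 reads in genes, a count of 0 allows up to 3 reads, or 0.00613 CPM, and 0.113 to 0.177 CPM in a single library. In all, 11221 of the 32494 rows (34.5%) had no read in any library. Neuropeptide Y is a common peptide of rodent cortical GABA neurons. The link between this row and the symbol was not tested, and no statement on neuropeptide Y expression is drawn from it.

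In their profiles over libraries, Gad1 was nearer to Slc32a1 and to Sst than Gad2 was to any gene of the set. Likeness was measured as Pearson's r of log2 CPM over the 21 libraries of the main groups, among 11960 genes, and it is a description, since libraries share groups, batches and depth. The gene most like Gad2 was ENSRNOG00000003887 with r = 0.96, while its closest gene of this set, Gad1, had r = 0.60 and ranked 1009. The gene most like Gad1 was ENSRNOG00000029903 with r = 0.88, and its closest of the set, Sst, had r = 0.72 and ranked 77. Slc32a1 and Sst each had Gad1 as their closest of the set, with r of 0.71 and 0.72 and ranks of 44 and 7.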

How the data were processed

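The authors deposited raw read counts per Ensembl gene, 1 table per library, with 5 summary lines that were left out here. The submitters' processing notes name cutadapt 1.8, STAR 2.5.2b, HTSeq 0.6.1 and the build Rnor_6.0. Per the labels' protocols the mRNA kit was stranded. No source used here says whether counting used strand or which annotation served, so reads of overlapping antisense genes may be included. Of all reads tallied, 14.8 to 17.1% lay outside genes, and 23.5 to 25.0% aligned to several places and were assigned to no gene.

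CPM were computed from the gene rows. TMM factors, used in the tests, were 0.983 to 1.02. Genes passing filterByExpr (minimum count 10) entered robust quasi-likelihood fits in edgeR 4.0.16 under R 4.3.3. The fit held 21 libraries as 7 groups (14035 genes, leaving 14 degrees of freedom). PBS at 24 hours against the 12 hour repeats was fitted apart, with sepiapterin at 24 hours kept for the spread. P-values were Benjamini-Hochberg adjusted over all genes tested, and 0.05 was the threshold. SE were derived from the F statistic and intervals from its degrees of freedom. The code was tested on simulated data. Alternatives were DESeq2 1.42.0, other scalings, no filter, other groupings of samples 10 and 11, and libraries left out.

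The genes and lists were chosen with earlier results of these data known. All 6 genes are named, with the single most similar gene for each decarboxylase. Lists of related genes could not be used, because no table pairs their symbols with the identifiers.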

Additional observations from a re-analysis of the deposited data

Results flagged for a closer look

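The ratio of Gad2 to Gad1 counts stood out because sepiapterin libraries all lay below the PBS libraries at 6 hours and all above them at the later times. Sepiapterin minus PBS was -0.063 at 6 hours, 0.058 at 12 hours and 0.0996 at 24 hours. The effect at 12 hours minus that at 6 hours was 0.121, and that at 24 hours minus that at 6 hours was 0.163. These differences were not tested, and the pattern was read from the same values. At 6 and 12 hours the gaps between the nearest libraries were below the counting error of a single library. By label, 24 hours belongs to another library batch than 6 hours, whereas 12 hours shares the batch of 6 hours. The levels of Gad2 and Gad1 themselves overlapped between sepiapterin and PBS at each time.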

How the results depend on the processing

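No paired analysis was possible because the titles give the libraries of the groups compared no shared replicate numbers. The number of genes of this set called stayed at 0 for sepiapterin against PBS at each time, for the average and for the differences between times, and at 1 for 24 over 0 hours in PBS, under every alternative run. For 12 over 6 hours it was 1 in PBS with only those groups fitted, where 1528 of 13559 genes were called. In sepiapterin it was 0 so fitted, and 0 to 1 with single libraries left out. For 12 over 0 hours in PBS it was 2 with controls by file header and 2 with both libraries of samples 10 and 11 summed, Pvalb being the addition to Gad2. That addition was partly fixed by the filter and supports nothing. For 24 hours over the 12 hour repeats it was 0 by library size alone, 0 by file header, 2 without a filter, 2 with only those groups fitted, and 0 to 1 with single libraries left out. Pvalb was the addition where 2 were called, and the 1 call without PBS replicate 1 at 24 hours, but where a filter was used it reached 10 reads in the repeats alone.

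Values near 0 changed sign with single libraries left out. Gad2 with sepiapterin at 6 hours had log2 fold changes of -0.10 to 0.026, and its effect at 24 minus 12 hours was -0.13 to 0.055. The average effect of sepiapterin was -0.30 to 0.014 for Pvalb, -0.0085 to 0.054 for Slc32a1 and -0.0034 to 0.089 for Sst. Sst in sepiapterin at 12 over 6 hours was -0.013 to 0.27. For 24 over 0 hours Gad1 was -0.068 to 0.045, Slc32a1 -0.099 to 0.078 and Sst -0.13 to 0.11. The average for Slc32a1 was -0.0061 by file header. For 24 over 0 hours Gad1 was 0.0031 with DESeq2 size factors, 0.00046 without a filter and 0.0047 by DESeq2, and Slc32a1 -0.0040 by library size alone. Over all genes, calls for sepiapterin against PBS numbered 236 by DESeq2 and 3 by edgeR at 12 hours, and 454 by DESeq2 and 144 by edgeR in the average. For 24 hours over the 12 hour repeats they numbered 79 by file header and 757 by title. The causes were not tested. Pvalb, with 174 reads in all, and Npy, with 0, had too few reads for a firm comparison.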
